A study of Mus musculus with 23 samples.

Results

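This account concerns the 74 genes of mouse chromosome 4 whose start lies from 140 to 150 Mb in the GRCm38 coordinates of the count table and whose mean over all 23 libraries was above 1 CPM (counts per 1000000 counts of genes in a library). The table listed 325 genes in that segment, and 14623 of the 55335 genes of the whole table passed the same level. No member was left out for a symbol of the ribosomal or respiratory chain families, and all 74 passed the filter on low counts in every comparison. The segment was chosen by its many differences between 3xTg and WT mice at 8 months. The 8-month values and calls below therefore describe that choice and are no test of it. The 10-month libraries did not enter the choice of the segment. They did enter the level of 1 CPM, a mean over all 23 libraries, and so the choice of members. The 2 members closest to the level were Tnfrsf8 and Zfp991, at a mean of 1.17 and 1.18 CPM, and the 2 genes just under it were Gm13031 at 0.913 CPM and Masp2 at 0.845 CPM. At 8 months their log2 fold changes between the strains were 1.75, 1.45, 0.32 and -1.89 in that order. By position, the last gene before the segment was Klhdc7a and the first after it was Gpr157, with 8-month log2 fold changes of 0.02 and -0.20, against 0.04 for Igsf21 and -0.11 for H6pd, the first and last members.

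RNA of the hippocampus of female mice was counted in 6 groups. WT-8M and 3xTg-8M were untreated mice of 8 months with 4 libraries each. At 10 months, after 28 days of infusion into the lateral ventricles by osmotic pump, WT-D (4 libraries) and 3xTg-D (4) had received the vehicle, artificial cerebrospinal fluid with 0.8% DMSO, and WT-S (3) and 3xTg-S (4) an inhibitor of stearoyl-CoA desaturase, SCDi, at 80 µM in that vehicle. The 3xTg mice are a model of Alzheimer's disease whose alleles include mutant human APP and MAPT under the neuronal Thy1.2 promoter. The WT mice were B6129SF2/J, a hybrid of C57BL/6J and 129S1 mice, and so a separate strain from the 3xTg mice. Strain here therefore stands for all alleles of that line and the whole genetic background at once, which cannot be told apart.

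A stretch of chromosome passes from parent to offspring as a unit until a crossover breaks it, so neighbouring genes share the allele of their common ancestor. Laboratory strains differ in sequence at many such stretches, and a sequence difference near a gene can alter how much RNA is made from that copy. The genes of this segment have no common task. They include a citrullinating enzyme of oligodendrocytes, cilium components, mitochondrial carriers, receptors of the tumour necrosis factor family, F-box proteins of the ubiquitin system and a cluster of zinc finger genes. The count table holds no genotypes, and which alleles an animal carried was not tested.

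Gene counts per library ran from 12802267 to 36686413 at 8 months, and the 15 libraries of 10 months lay between 12992547 and 17575615. Thy1, whose promoter parts drive the transgenes, averaged 590 ± 48.1 CPM (SD, n = 4) in WT-8M and 2112 ± 188 (n = 4) in 3xTg-8M, and the 3xTg groups of 10 months averaged 1797 ± 200 (n = 4) and 1822 ± 339 (n = 4) against 619 ± 23.6 (n = 4) and 678 ± 64.8 (n = 3), so the strain labels matched. Summed markers of the hippocampus (10 genes) were 1797 to 2365 CPM over the libraries. Those of the choroid plexus, an epithelium beside the hippocampus, were 208 to 782 CPM, with 3xTg-8M replicate 4, WT-S replicate 2 and 3xTg-S replicate 2 the highest. In bulk RNA, fewer cells of a type and less RNA per cell cannot be told apart.

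At 8 months 7 of the 74 members (9.46%) had an adjusted p under 0.05 in edgeR's quasi-likelihood test, against 2.58% of the 15483 genes tested. Of these, 6 were higher in 3xTg-8M, and Padi2 was lower. The count was 2, Padi2 and Miip, without WT-8M replicate 1 or 2 or 3xTg-8M replicate 1, 2 or 3. They lay in a pair of stretches, whose limits were set after their values were seen. The first runs from Padi2 to Arhgef19, 10 members within 0.351 Mb (chr4:140906344-141257564), and held 4 of the 7. The second runs from Zfp991 to Fbxo44, 14 members within 1.03 Mb (chr4:147132038-148160482), and held the other three. A gap of 5.87 Mb separates them, and none of the 22 members inside it was among the 7. Masp2, a gene of the segment left out by its level, was lower in 3xTg-8M with an adjusted p of 0.0043 (edgeR's quasi-likelihood test). It lies outside both stretches, after Fbxo44, so this layout holds only for genes above 1 CPM. Masp2 overlaps the member Tardbp, which had a mean of 241 CPM and was at -0.19 ± 0.09 at 8 months. Whether reads were counted by strand is not given in the sources used here. At 10 months Masp2 was not tested with vehicle, and its log2 fold change with SCDi was 0.41. The segment ranked 3 among the 16 windows of 10 Mb on this chromosome by the share of genes called, after the windows from 80 Mb (15.4% of 26 genes) and from 70 Mb (11.1% of 9 genes). The neighbouring windows held 0 of 143 genes before the segment and 1 of 88 after it. The libraries of the strains did not overlap for 16 of the 74 members, against 11.1% of all genes tested. Among the 16 were Plekhm2, Casp9, Gm29367, Tnfrsf1b and Tnfrsf8, which lie in the gap.

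**Figure D1:**
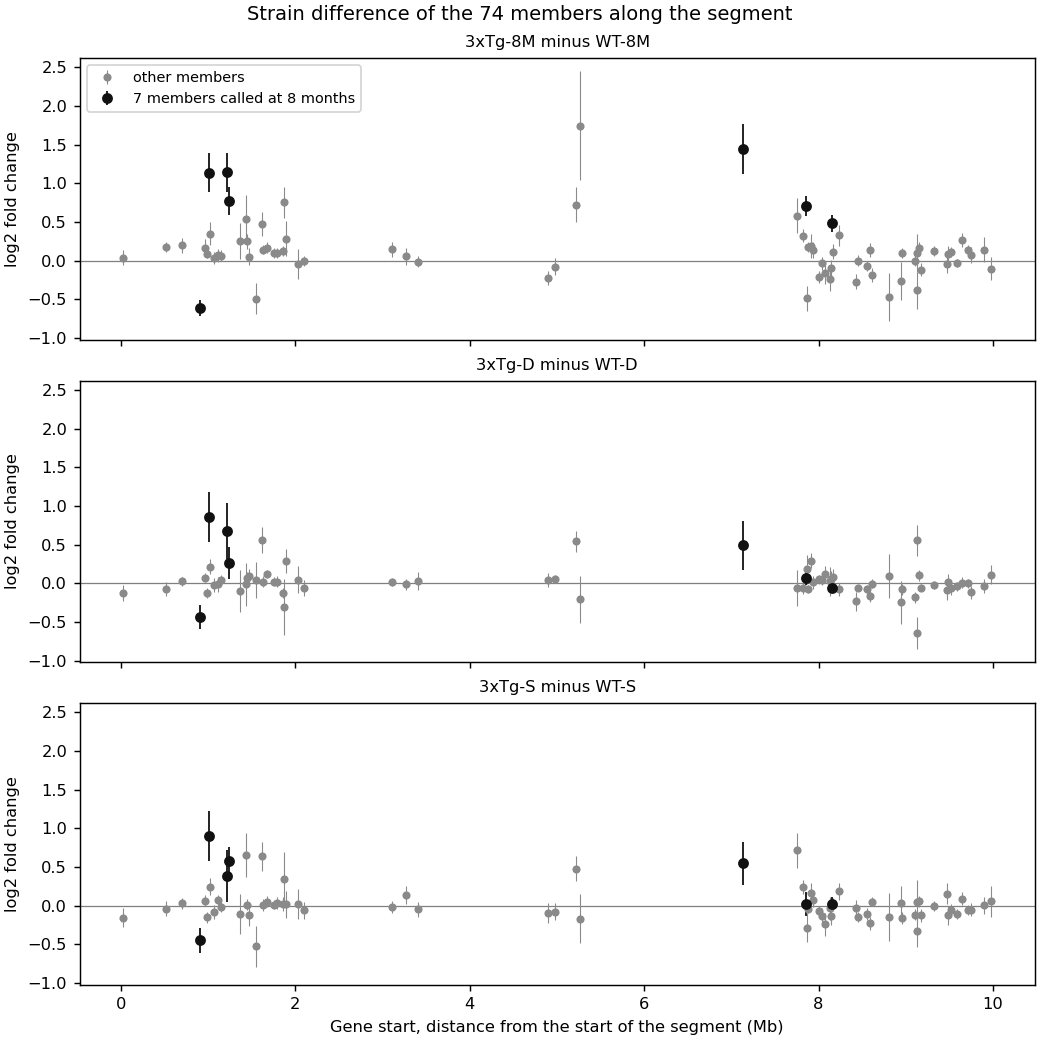
Log2 fold change (3xTg over WT, with its standard error) of the 74 members against the distance of their start from the start of the segment in Mb, in 3 panels for 8 months, vehicle at 10 months and SCDi at 10 months. The 7 members called at 8 months are black. The first 4 sit close together and the other three lie farther along, of which the last 2, Miip and Fbxo44, are near 0 at 10 months.

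The genes of the first stretch are shown by the sequence in front of them, since neighbours there moved in opposite directions between the strains. The 250 bases before the start of Padi2, Mfap2 and Cplane2 come from RefSeq on build GRCm38.p6, which is the C57BL/6J sequence and not that of the mice measured. Of the 74 members 65 had an entry. Each sequence reads 5′ to 3′ on the plus strand, and capitals mark 3 motifs searched on both strands: the TATA box core TATAAA, the CCAAT box CCAAT and the GC box GGGCGG, or their reverse complements.
Padi2 (chr4:140906110-140906359): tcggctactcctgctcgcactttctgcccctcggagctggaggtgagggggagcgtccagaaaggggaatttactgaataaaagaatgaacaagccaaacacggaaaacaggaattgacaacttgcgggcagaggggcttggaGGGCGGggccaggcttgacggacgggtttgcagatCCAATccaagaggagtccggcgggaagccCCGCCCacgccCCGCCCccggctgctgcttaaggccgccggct
Mfap2 (chr4:141010174-141010423): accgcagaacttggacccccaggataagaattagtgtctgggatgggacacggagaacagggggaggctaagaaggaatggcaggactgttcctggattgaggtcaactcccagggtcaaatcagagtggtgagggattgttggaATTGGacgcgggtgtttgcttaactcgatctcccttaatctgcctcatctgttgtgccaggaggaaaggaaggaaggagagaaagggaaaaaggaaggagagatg
Cplane2 (chr4:141213706-141213955): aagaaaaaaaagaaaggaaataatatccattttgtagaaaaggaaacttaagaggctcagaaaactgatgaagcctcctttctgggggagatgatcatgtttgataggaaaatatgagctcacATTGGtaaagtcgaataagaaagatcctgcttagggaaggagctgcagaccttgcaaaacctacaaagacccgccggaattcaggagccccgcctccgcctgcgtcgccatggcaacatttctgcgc
Padi2 has 17 CpG dinucleotides, 61.6% GC, 3 GC boxes and 1 CCAAT box in this window. Mfap2 has 5 CpG, 51.2% GC and 1 CCAAT box, and Cplane2 has 8 CpG, 44.8% GC and 1 CCAAT box, with 0 GC boxes in both. None of the 3 windows has the letters TATAAA. Over all 32851 entries of the table, the same window held TATAAA in 12.4%, CCAAT in 33.8% and GGGCGG in 32.7%, the median number of CpG was 6 and the median GC 52.4%. These counts describe the reference letters only. The RefSeq start of Padi2 lies 16 bases, and that of Mfap2 6 bases, inside the gene as listed in the count table. That of Arhgef19 lies 5589 bases inside it, and its sequence is therefore not shown. The window before that start has 5 CpG, 62.8% GC, 1 GC box and 0 CCAAT boxes, and Arhgef19 was higher in 3xTg-8M.

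Padi2 encodes peptidylarginine deiminase 2, which converts arginine of proteins such as myelin basic protein to citrulline and is made mainly by oligodendrocytes in brain (chr4:140906344-140952586). In WT-8M its libraries held 62.1, 69.9, 56.7 and 51.2 CPM, and in 3xTg-8M 43.9, 41.9, 35.9 and 34.7 CPM, without overlap. At 10 months WT-D held 43.0, 42.7, 51.8 and 76.3 CPM against 39.5, 40.0, 35.9 and 43.6 in 3xTg-D, and WT-S 38.6, 73.2 and 64.8 against 47.5, 38.1, 44.8 and 42.4 in 3xTg-S. The 8 3xTg libraries of 10 months thus lay within 35.9 to 47.5 CPM, whereas the 7 WT libraries spread from 38.6 to 76.3, with WT-D replicates 1 and 2 and WT-S replicate 1 among the 3xTg values. The log2 fold change was -0.61 ± 0.10 (SE) at 8 months, -0.44 ± 0.16 in the vehicle groups and -0.45 ± 0.16 in the SCDi groups, with adjusted p = 0.245 and 0.317 in edgeR for the last pair. Summed oligodendrocyte markers (8 genes) ranged from 3169 to 5666 CPM in WT-8M and from 4803 to 6033 in 3xTg-8M, and these ranges overlapped. At 10 months they were 4153 to 5414 CPM in WT-D and 3751 to 5922 in 3xTg-D, which overlapped, and 3915 to 5090 in WT-S and 5847 to 6823 in 3xTg-S, which did not, the markers being higher in 3xTg-S where the log2 fold change of Padi2 was negative. Their part in the result was not tested. The lncRNA Gm13031 overlaps Padi2, and whether reads were counted by strand is not given in the sources used here.

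Mfap2, a protein of elastic microfibrils, was the next called gene of the stretch (chr4:141010418-141015984) and moved the other way. It held 0.954, 1.07, 1.44 and 0.924 CPM in WT-8M and 2.40, 3.36, 2.10 and 1.56 in 3xTg-8M. In the vehicle groups WT-D held 1.54, 2.68, 0.592 and 1.18 CPM and 3xTg-D 2.81, 2.77, 2.92 and 2.44. In the SCDi groups WT-S held 1.92, 0.938 and 0.798 CPM and 3xTg-S 2.10, 1.92, 1.97 and 3.11, and only in this 10-month comparison did the libraries not overlap, by 1.9242 against 1.9243 CPM. The log2 fold changes were 1.14 ± 0.25, 0.86 ± 0.32 and 0.90 ± 0.33 (adjusted p = 0.269 and 0.312 at 10 months, edgeR).

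Cplane2, a GTPase-like protein of cilium assembly (chr4:141213956-141226756), held 0.518, 0.641, 0.984 and 0.821 CPM in WT-8M and 1.76, 1.41, 1.88 and 1.24 in 3xTg-8M. In WT-D it held 1.82, 1.54, 0.461 and 0.685 CPM against 1.59, 1.45, 2.44 and 1.88 in 3xTg-D, and in WT-S 1.69, 0.938 and 0.653 against 1.42, 1.06, 1.83 and 1.42 in 3xTg-S. As for Padi2, WT-D replicates 1 and 2 and WT-S replicate 1 lay among the 3xTg libraries and the other 4 WT libraries apart from them. Arhgef19, a guanine nucleotide exchange factor (chr4:141239499-141257564), showed the same division. It held 6.16, 7.55, 11.95 and 9.17 CPM in WT-8M and 14.8, 16.4, 15.7 and 11.8 in 3xTg-8M. At 10 months WT-D held 12.6, 14.1, 6.65 and 7.66 CPM and WT-S 12.2, 7.29 and 6.82, against 10.8 to 14.1 CPM in the 8 3xTg libraries. The log2 fold changes of Arhgef19 were 0.77 ± 0.18 at 8 months, 0.26 ± 0.21 with vehicle and 0.58 ± 0.19 with SCDi, and those of Cplane2 were 1.14 ± 0.25, 0.68 ± 0.36 and 0.39 ± 0.34.

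**Figure D2:**
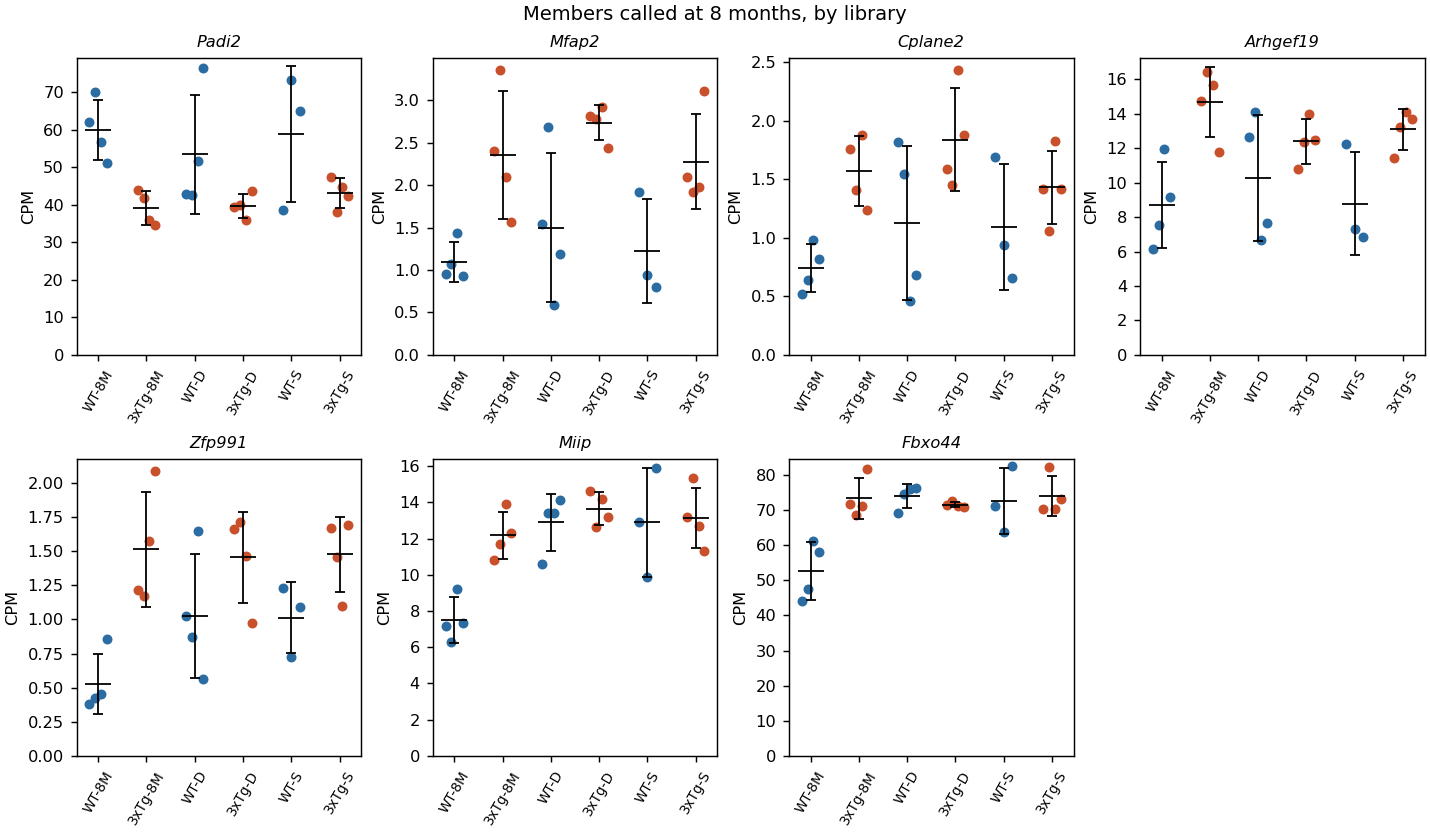
CPM of the 7 members called at 8 months in each library (points) with the mean and SD of each group (black), WT in blue and 3xTg in red, 4 libraries a group and 3 in WT-S. In WT-D and WT-S the points of Padi2, Cplane2 and Arhgef19 fall both at the 3xTg level and at the WT-8M level, while Miip and Fbxo44 are low in WT-8M alone.

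The WT libraries of 10 months divided in the order of the animal numbers in the labels. Those numbers form 4 blocks of 4 consecutive numbers, with 1 animal of each group per block except that the first lacks WT-S. WT-D replicate 1 is in the first block, WT-D replicate 2 and WT-S replicate 1 in the second, WT-D replicate 3 and WT-S replicate 2 in the third, and WT-D replicate 4 and WT-S replicate 3 in the fourth. For Padi2 the mean log2(CPM + 0.1) of 3xTg minus that of WT was 0.01 and -0.06 in the first 2 blocks and -0.62 and -0.71 in the last 2. For Arhgef19 it was -0.18 and -0.04, then 1.00 and 0.85, and for Cplane2 -0.26 and -0.35, then 1.54 and 1.17. Crocc, the rootletin of the ciliary rootlet, which lies between them, gave 0.18 and -0.07, then 0.54 and 0.33. Atp13a2, a lysosomal polyamine transporter that also lies between Padi2 and Arhgef19, gave 0.03 and -0.02, then -0.15 and -0.28. Mfap2 gave 0.63 and 0.02, then 1.56 and 1.41. The strain difference at 10 months was therefore not present alike in all blocks for these 6 members, and its direction in the last 2 blocks was the same as at 8 months for all but Atp13a2, which was 0.09 ± 0.06 higher in 3xTg-8M. Sdhb, a subunit of succinate dehydrogenase between Padi2 and Atp13a2, showed no such division, at 0.19, 0.10, 0.10 and 0.01. The 8-month labels also carry numbers, in pairs of consecutive ones. No such pair holds both strains, so at 8 months the strains could not be compared within a pair. The labels do not say what the order of the numbers reflects.

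**Figure D3:**
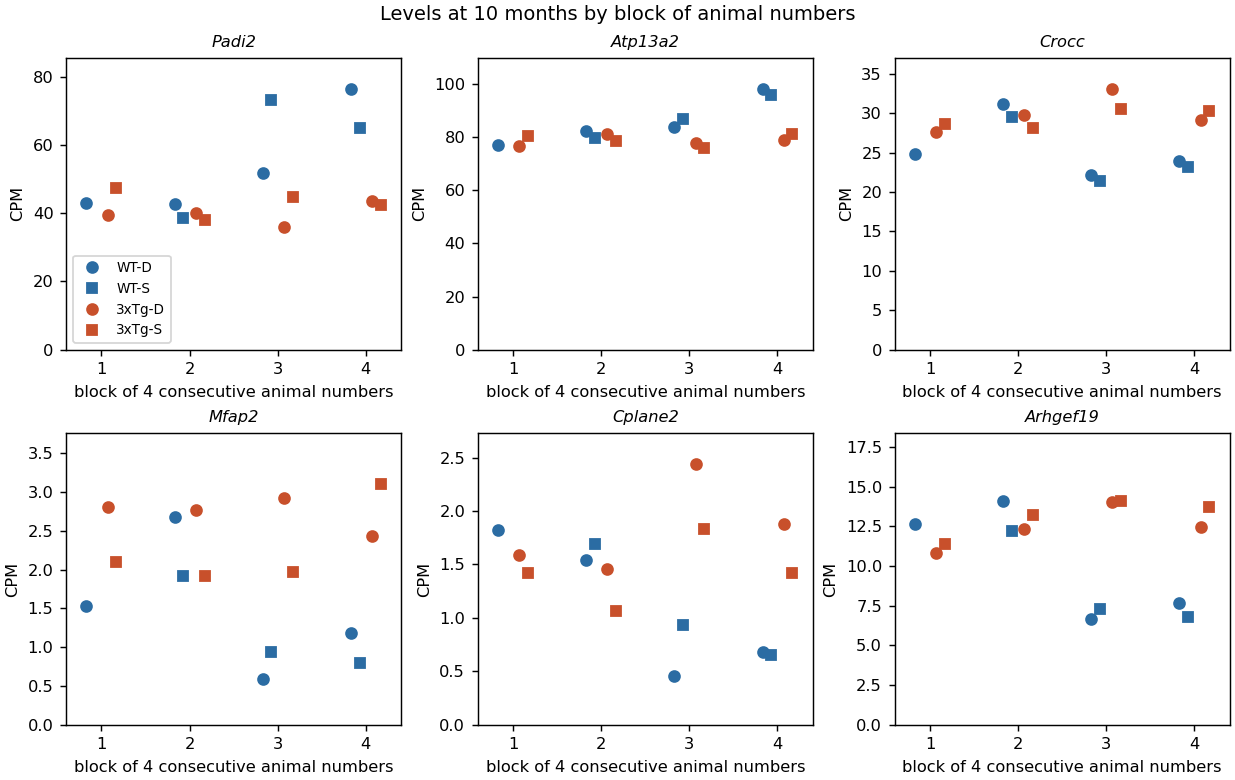
CPM at 10 months of 6 members of the first stretch against the block of animal numbers, WT in blue and 3xTg in red, circles for vehicle and squares for SCDi, 1 point a library. In blocks 1 and 2 the WT points of Padi2, Cplane2 and Arhgef19 lie among or beside the 3xTg points, and in blocks 3 and 4 all 4 WT points lie apart from them.

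For the 6 members the division appeared as a wider spread between WT libraries than between 3xTg libraries. The SD of log2(CPM + 0.1) within groups of 10 months, pooled over both treatments with 5 degrees of freedom for WT and 6 for 3xTg, was 0.50 for Arhgef19 in WT and 0.14 in 3xTg, a ratio of 3.49. The ratio was 3.62 for Atp13a2, 3.45 for Padi2, 3.25 for Mfap2, 2.61 for Crocc and 2.52 for Cplane2. A ratio above 2, a limit set after the values were seen, was found for 14 of the 74 members (18.9%), against 11.2% of the 14623 genes above 1 CPM, and 6 of the 14 were among the 10 members of the first stretch. The median ratio was 1.16 over the members and 1.03 over all genes. Pex14 (3.29), Dnajc16 (2.63) and Mad2l2 (2.52), which lie outside the first stretch, were also above 2.

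**Figure D4:**
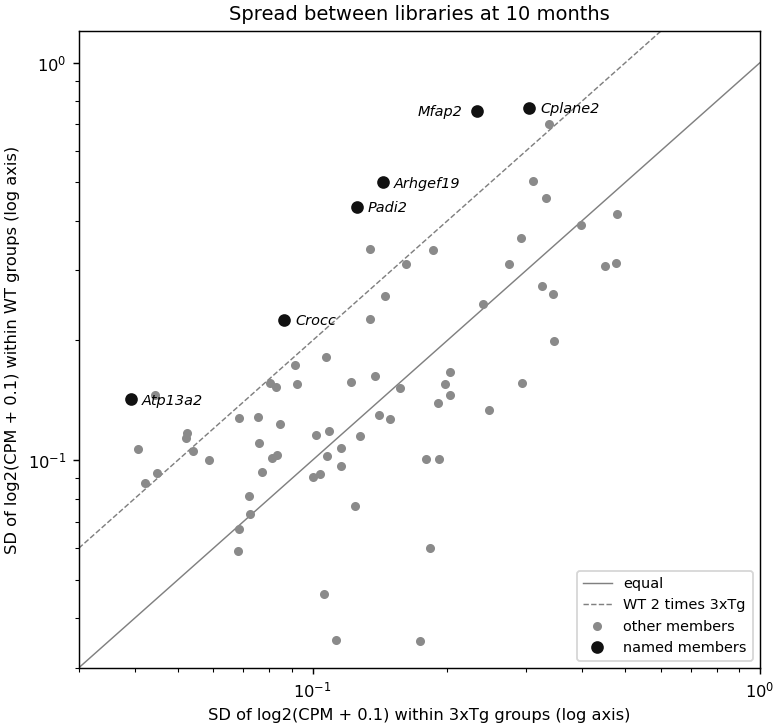
SD of log2(CPM + 0.1) within WT groups against that within 3xTg groups at 10 months for the 74 members, both on log axes, with lines at equal spread and at a WT spread 2 times that of 3xTg. The 6 named members of the first stretch lie above the upper line, with ratios from 2.52 to 3.62.

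In the second stretch, Miip and Fbxo44 differed between the strains at 8 months and had values near 0 at 10 months. Miip, an inhibitor of cell migration (chr4:147860778-147868816), held 7.17, 6.27, 9.23 and 7.36 CPM in WT-8M and 10.8, 11.7, 13.9 and 12.3 in 3xTg-8M. At 10 months it held 10.6, 13.4, 13.4 and 14.1 CPM in WT-D and 12.9, 9.88 and 15.9 in WT-S, against 11.3 to 15.3 in the 8 3xTg libraries. The 4 WT-8M libraries were thus below all 19 others. Fbxo44, a substrate receptor of SCF ubiquitin ligases (chr4:148152800-148160482), did the same, with 44.1, 47.4, 61.1 and 57.9 CPM in WT-8M against 63.9 to 82.5 in the other 19 libraries. Its log2 fold change was 0.48 ± 0.11 at 8 months, -0.06 ± 0.05 with vehicle and 0.03 ± 0.09 with SCDi, and that of Miip 0.70 ± 0.13, 0.07 ± 0.10 and 0.03 ± 0.15. Between the ages the mice also differed in infusion and animal, so age alone was not compared. The labels of the 8-month libraries also carry an L or l before HPP that the 10-month labels lack. The labels do not say what it means.

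Zfp991, a zinc finger gene of a cluster of similar genes (chr4:147132038-147180579), held 0.382, 0.427, 0.454 and 0.856 CPM in WT-8M and 1.22, 1.17, 1.58 and 2.08 in 3xTg-8M. In WT-D it held 1.02, 0.872, 1.64 and 0.560 CPM and in 3xTg-D 1.66, 1.72, 1.46 and 0.976, and the groups overlapped. In WT-S it held 1.23, 0.721 and 1.09 CPM and in 3xTg-S 1.67, 1.46, 1.10 and 1.69, with 1 WT-S library above the lowest 3xTg-S library. The log2 fold change was 1.45 ± 0.33 at 8 months, 0.49 ± 0.32 with vehicle and 0.55 ± 0.28 with SCDi. How reads shared by such similar genes were counted is not given in the sources used here, and the counts of Zfp991 are uncertain. Tnfrsf8, a receptor of the tumour necrosis factor family that lies before the cluster, had 0, 0, 8 and 21 counts in the 4 WT-8M libraries, the first of which was the deepest of all, and its 0 to 0.719 CPM there lay below the 0.731 to 2.08 CPM of the other 19 libraries.

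At 10 months no member was called in either strain comparison by edgeR's quasi-likelihood test (0 of 74 with vehicle, 0 of 74 with SCDi), where 1.39% and 1.32% of all genes were called. DESeq2's likelihood ratio test also called 0 in each. With no filter on low counts, edgeR called 2 members with vehicle (Padi2 and Slc25a34) and 3 with SCDi (Padi2, Arhgef19 and Slc25a34), and 1 fit of all 15 libraries called 1 with vehicle (Tnfrsf1b). At an unadjusted p under 0.05 there were 10 members with vehicle and 11 with SCDi, against 13.1% and 10.6% of all genes, and the lowest adjusted p was 0.0773 (Tnfrsf1b, vehicle). Libraries of the strains did not overlap for 4 members with vehicle, where 7.28% of all genes did not, and for 7 with SCDi, where 10.6% did not. Without WT-S replicate 1, 3 members were called with SCDi, namely Padi2, Crocc and Arhgef19. Of the 7 members called at 8 months, 6 had the same sign with vehicle and 7 with SCDi. Taken as positive where the sign was that of 8 months, their median log2 fold change was 0.44 and 0.45, against 0.77 at 8 months. These 7 were picked by their 8-month values, which by itself favours a smaller median in other libraries. The same counts over all genes called at 8 months were not made. Each library was also set against the midpoint of its strain pair. That midpoint came from the same libraries and so places them partly by construction, and the counts are a description only. By this count, 2 to 6 of the 7 were on the 3xTg side in the WT-D libraries and 4 to 6 in 3xTg-D. In WT-S replicate 1 it was 6 of 7, and in WT-S replicates 2 and 3 it was 0 and 2, against 4 to 6 in 3xTg-S.

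The 10-month strain difference was also fitted over all 15 libraries with treatment as a covariate, a fit added after the separate comparisons were seen. It called 6 of the 74 members (8.11%), against 6.53% of the 16262 genes tested. The window of 10 Mb after the segment was at 7.87% of 89 genes and that before it at 2.80% of 143. The window from 10 Mb was at 8.82% of 34 genes, above the segment. Tnfrsf1b (0.51 ± 0.09, adjusted p = 0.00109), Slc25a34 (0.59 ± 0.13, adjusted p = 0.0070) and Mfap2 (0.88 ± 0.24, adjusted p = 0.0319) were higher in 3xTg mice. Srm (-0.20 ± 0.05, adjusted p = 0.026), Padi2 (-0.44 ± 0.12, adjusted p = 0.0387) and Cort (-0.50 ± 0.15, adjusted p = 0.0499) were lower. At 8 months Tnfrsf1b was at 0.72 ± 0.23, Slc25a34 at 0.47 ± 0.16 and Cort at -0.38 ± 0.24, with the same signs. Srm was at 0.14 ± 0.09 there, with the other sign, and none of these was called at that age. Padi2 and Mfap2 had also been called at 8 months, which is 28.6% of the 7 and 33.3% of the 6 called in this fit. The matching shares over all genes were not taken, so whether this overlap is large or small cannot be said. Without 1 library the count ran from 2 to 7, and it fell to 2 without 3xTg-D replicate 1 or 3, WT-S replicate 3 or 3xTg-S replicate 4, and to 3 without 3xTg-D replicate 2 or 3xTg-S replicate 1. Tnfrsf1b and Slc25a34 were called under all 19 alternatives to this fit, Srm was lost in 5, Mfap2 in 7, Padi2 in 10 and Cort in 13.

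Tnfrsf1b, the tumour necrosis factor receptor 2 of microglia and other immune cells (chr4:145213463-145246870), was the one member whose libraries did not overlap in the same direction in all 3 strain comparisons, as was the case for 1.07% of the genes tested in all 3. It held 1.39, 2.56, 2.72 and 2.98 CPM in WT-8M and 4.56, 3.67, 3.75 and 3.45 in 3xTg-8M. At 10 months it held 3.24, 2.89, 2.96 and 3.55 CPM in WT-D against 4.62, 4.95, 4.57 and 4.46 in 3xTg-D, and 3.08, 3.39 and 2.90 in WT-S against 4.26, 4.78, 4.02 and 4.39 in 3xTg-S. All 7 WT libraries of 10 months were below all 8 3xTg libraries, and the difference was present in each of the 4 blocks of animal numbers, at 0.44, 0.69, 0.42 and 0.45 on the log2 scale. Summed microglia markers (6 genes) were 317 to 363 CPM in WT-8M and 371 to 441 in 3xTg-8M, 320 to 371 in WT-D and 323 to 491 in 3xTg-D, and 340 to 362 in WT-S and 400 to 487 in 3xTg-S. Their part in the result was not tested.

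Slc25a34, a mitochondrial carrier (chr4:141618824-141623821), held 5.41, 4.23, 4.67 and 3.24 CPM in WT-D against 6.28, 6.67, 7.74 and 5.44 in 3xTg-D, and 3.23, 3.68 and 5.44 in WT-S against 6.29, 5.77, 7.53 and 6.15 in 3xTg-S. The strains did not overlap within either treatment, and with vehicle by 5.41 against 5.44 CPM. Srm, the spermidine synthase (chr4:148591503-148594993), held 28.6, 28.6, 26.8 and 28.9 CPM in WT-D against 25.1, 28.1, 24.2 and 24.2 in 3xTg-D, and 30.3, 30.1 and 35.8 in WT-S against 27.5, 31.0, 25.7 and 25.5 in 3xTg-S, with overlap in both. Cort, which encodes the neuropeptide cortistatin of interneurons (chr4:149125034-149126763), held 4.15, 4.56, 3.88 and 2.49 CPM in WT-D against 2.74, 2.58, 2.62 and 1.81 in 3xTg-D, and 4.23, 3.32 and 3.92 in WT-S against 2.96, 3.98, 2.49 and 2.70 in 3xTg-S. WT-D replicate 4 was the one WT library of 10 months under 3 CPM.

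**Figure D5:**
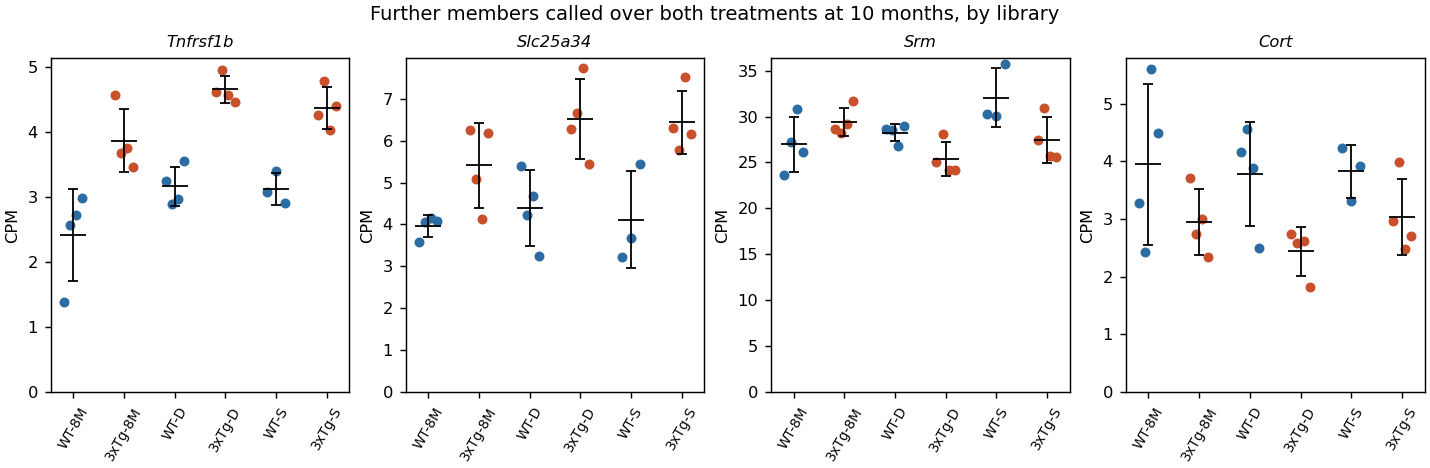
CPM in each library (points) with the mean and SD of each group (black) for Tnfrsf1b, Slc25a34, Srm and Cort, WT in blue and 3xTg in red, 4 libraries a group and 3 in WT-S. For Tnfrsf1b all 3xTg libraries lie above the WT libraries of the same age and treatment, while the other three overlap in at least 1 comparison.

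The members were also grouped by function, in lists written from general knowledge. Kif1b and Clstn1, a kinesin of axonal transport and a calsyntenin of synapses, were the most abundant at a mean of 979 and 877 CPM, and their log2 fold changes over both treatments at 10 months were -0.09 ± 0.05 and -0.07 ± 0.04. Of the 8 members in the list for neuronal transport, adhesion and synapse, 0 were called at 8 months and 1 (Cort) over both treatments at 10 months, with a median log2 fold change of -0.06 at 10 months. Of the 15 zinc finger and other nuclear factors, 1 was called at 8 months (Zfp991) and 0 at 10 months, and Tardbp, an RNA-binding protein of the nucleus at 241 CPM, was at 0.02 ± 0.04 and Prdm2, a histone methyltransferase, at 0.00 ± 0.05. Of the 16 members for mitochondria and metabolic enzymes, Padi2 and Miip were called at 8 months and Padi2, Slc25a34 and Srm at 10 months, while Mfn2, which fuses mitochondria, was at -0.06 ± 0.04 and Sdhb at 0.07 ± 0.04. Of these, Padi2 and Miip are not mitochondrial.

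Of the 10 members for growth and kinase signalling, Arhgef19 was called at 8 months and Tnfrsf1b at 10 months, and Mtor, the kinase of nutrient signalling, was at -0.10 ± 0.04 over both treatments, with Plekhm2, which links lysosomes to kinesin, at 0.02 ± 0.05. Of the 8 members for protein turnover and cell death, Fbxo44 was called at 8 months and 0 at 10 months, with Ube4b, a ubiquitin chain elongation factor, at -0.02 ± 0.04 and Ddi2, an aspartic protease, at 0.09 ± 0.04. The 5 members for lysosome, endosome and ion transport had 0 called at both ages, and among them Vps13d, a lipid transfer protein, was at -0.01 ± 0.07 and Atp13a2 at -0.14 ± 0.04 at 10 months (adjusted p = 0.0769, edgeR). Of the 4 vascular, matrix and glial members, Mfap2 was called at both ages, Efhd2, a calcium-binding protein, was at -0.06 ± 0.06, and Crocc was at 0.23 ± 0.07 (adjusted p = 0.0775, edgeR). The median log2 fold change over all 74 members was 0.10 at 8 months and 0.00 over both treatments at 10 months, against 0.01 and 0.00 over all genes tested.

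SCDi changed no member past the threshold of edgeR's quasi-likelihood test. In 3xTg-S against 3xTg-D, 0 of 74 were called, as were 0% of the 15530 genes tested, and 6 members had an unadjusted p under 0.05, where 11.2% of all genes did. The lowest was Pdpn, podoplanin of astrocytes and meninges, at a log2 fold change of 0.26 ± 0.08 (unadjusted p = 0.00706, adjusted p = 0.378). In WT-S against WT-D, 0 of 74 were called, as were 0% of the 15724 genes tested, and 6 members had an unadjusted p under 0.05, where 3.42% of all genes did. Here the lowest was Zfp933, with 26.6, 27.8, 25.5 and 23.2 CPM in WT-D and 22.2, 18.3 and 19.3 in WT-S, a log2 fold change of -0.39 ± 0.10 (unadjusted p = 0.00258, adjusted p = 0.981). The interaction of strain and treatment also called 0 of 74 and 0% of 16262 genes, with 2 members, Zfp933 and Zfp984, at an unadjusted p under 0.05, where 2.32% of all genes were. DESeq2's likelihood ratio test called 0 members in each of these 3.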

How the data were processed

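The deposited table holds raw counts of reads per gene, with gene symbol and GRCm38 location. According to the study's methods, the authors prepared libraries from polyadenylated RNA, read them from 1 end, trimmed them with Trimmomatic 0.35 and aligned them with STAR 2.5.1b using a Gencode annotation, and normalised the data in their own pairwise tests. The table itself holds whole numbers, 1 column per library. The strand setting and any use of molecular identifiers in the counting are not given in the sources used here. The 4 lines that name no gene held 24.68% to 30.87% of reads and entered neither library sizes nor tests. With totals of 12802267 to 36686413 gene counts per library, a member at 1 CPM rests on few counts. The SDs and standard errors given here include differences between animals as well as counting error.

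CPM is a count divided by the library's gene counts and multiplied by 1000000. Pairs of groups were fitted separately over the whole table, each from its own libraries, with edgeR 4.0.16 in R 4.3.3 (filterByExpr, TMM scaling, quasi-likelihood test), with Benjamini-Hochberg adjustment over all genes tested, and a gene with an adjusted p under 0.05 is called. All adjusted p-values come from this test. Standard errors of log2 fold changes were taken as the absolute change over the root of F. The interaction was fitted over the 15 libraries of 10 months. Alternatives were DESeq2 1.42.0 size factors, its likelihood ratio test, no filter on low counts, an unadjusted p under 0.01, members above 5 CPM, each library left out, 1 fit over 15 libraries, and a block for the animal numbers. The steps were tested on simulated data. Each library carries its own animal number in the labels, and correlations of log values between libraries of a group did not exceed 0.9956 in WT-8M and 0.9939 in 3xTg-8M.

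The members, function lists and marker lists were chosen with earlier results of these data known. Named members are those called at either age, those called at 1 age only, the 2 on each side of the level of 1 CPM, and the most abundant of each function list. Further members of the first stretch, Tnfrsf8, B330016D10Rik and Tmem51 were chosen after their values were seen. So were those named from the spread between libraries or from the lowest unadjusted p. One allele of the 3xTg line is not reported here.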

Additional observations from a re-analysis of the deposited data

Results flagged for a closer look

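Among 15 members printed by library, in 75 groups of 4 libraries, the highest or lowest library stood apart from the other three in 2 by Dixon's gap over the group's range, and chance gives about 1 in 20. Mfap2 in 3xTg-S replicate 4 was 3.11 CPM, where the other three libraries held 1.92 to 2.10. Zfp991 in WT-8M replicate 4 was 0.856 CPM, where the others held 0.382 to 0.454.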

How the results depend on the processing

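The number of members called at 8 months (7) was 7 with DESeq2 size factors and with its likelihood ratio test, 8 with no filter and 4 above 5 CPM. It ran from 2 to 7 without 1 library, and was 2 without WT-8M replicate 1 or 2 or 3xTg-8M replicate 1, 2 or 3. Padi2 and Miip were called in all 11 refits of that comparison, Mfap2, Cplane2, Arhgef19 and Fbxo44 in 5 and Zfp991 in 4. With vehicle at 10 months the count of 0 became 2 with no filter, 1 in a fit of all 15 libraries and 2 at an unadjusted p under 0.01, and stayed 0 without any 1 library. With SCDi it became 3 with no filter, 3 at that unadjusted p, and 0 to 3 without 1 library. The inhibitor comparisons had 1 member each at an unadjusted p under 0.01 and 0 under all else, and the interaction 0 throughout. The count over both treatments at 10 months (6), with all its alternatives chosen after seeing the data, was 5 to 8 with other scaling, filter, test or the block, 3 above 5 CPM, 9 at an unadjusted p under 0.01 and 2 to 7 without 1 library. No named call turned its direction. Why a count moved was not tested. The labels give the groups no shared replicate numbers, so the block used the animal numbers, and it called 0 members with vehicle, 0 with SCDi and 7 over both treatments. Members near 1 CPM, such as Zfp991, Cplane2 and Mfap2, rest on few counts.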
